A study of Homo sapiens with 23 samples.

Results

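This account covers the change from 2D to 3D culture in unmodified (WT) MCF10A cells. MCF10A is a line of human breast epithelial cells that grow without limit but form no tumours. The members were chosen by sample title: 6 arrays of WT cells in 2D and 5 of WT cells in 3D, 11 of the 23 samples of the study. The fit held 10 WT arrays read from the scanner table (6 in 2D, 4 in 3D); replicate 5 of WT cells in 3D was set beside them through the authors' deposited normalised values, and its scanner column entered 1 alternative. The other 12 arrays, 6 in 2D and 6 in 3D, were of a line labelled MCF10A/ErbB2*, called ErbB2* below. The labels name neither the construct of the ErbB2* line nor the medium or matrix of the 3D cultures. WT cells carried no stated modification in either culture, and no other agent was named for any group. RNA was hybridised to single-colour Illumina bead arrays, and 10914 genes were tested, each through the brightest probe of its symbol among probes detected above background on at least 5 of the 22 arrays fitted. Whether replicates are separate cultures is not stated in the labels, so the p-values reflect only how far these samples differ among themselves, which may be technical.

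In 3D culture on a reconstituted basement membrane, MCF10A cells are known for growing into hollow, polarised spheres (acini) whose outer cells contact the matrix and whose growth slows as they mature. Cells on plastic spread instead, form stress fibres and keep dividing while nutrients last. Genes of the cell cycle, of cell junctions, of the matrix and of stretch- and growth factor-responsive programmes are therefore of interest in such a comparison.

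The epithelial identity of the arrays was checked against marker genes. Of 14 markers of mammary epithelium 12 had a probe, 10 of them were detected on all 10 WT arrays, and the hormone receptor genes ESR1 and PGR were below background on all 10. Of the 10 that could be tested 5 rose and 3 fell, EPCAM (-2.41) among the latter. Their summed linear signal spanned 14750 to 19750 units in 2D and 16750 to 18290 in 3D. Of 15 leukocyte markers 7 could be tested, 3 rose and 1 fell, with summed signals of 1416 to 1773 in 2D and 2309 to 2768 in 3D; ITGAM and TYROBP were below background on all 10 arrays. Of 12 fibroblast markers 8 could be tested, 3 rose and 2 fell, with summed signals of 14730 to 17880 in 2D and 9151 to 10380 in 3D; COL1A2, COL3A1 and THY1 were below background on all 10 arrays. Of 12 endothelial markers 4 could be tested and 2 fell, or 1 against 2D replicates 1, 5 and 6 alone (summed signals 404.8 to 1120 against 319.7 to 443.1), and 7 were below background throughout, CDH5 and VWF among them. Of 9 adipocyte markers 6 could be tested and 1 fell (477.8 to 603.6 against 377.4 to 432.6), and ADIPOQ, PLIN1, LPL and CD36 were below background on all 10 WT arrays; the small difference called for CD36 lies there and has no usable level. Other markers of these cell types were detected on all 10 WT arrays: 4 leukocyte, 6 fibroblast, 2 endothelial and 2 adipocyte markers. They were CD14, CD68, CSF1R and LCP1 (leukocyte), PDGFRA, DCN, FAP, S100A4, POSTN and FBLN1 (fibroblast), PECAM1 and ENG (endothelial), and LEP and PPARG (adipocyte). What part cells of another kind have in these values was not tested. In RNA from whole cultures, fewer cells of a type and less RNA per cell cannot be told apart.

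The WT arrays separated by culture, and the 2D arrays also separated among themselves. Between 30.9% and 34.6% of the probes were detected on each array but replicate 5 of WT cells in 3D, where the scanner column had 19.1% and a mean signal of 150.6 against 333.6 to 482.9 on the other WT arrays. Over all probes the deposited column of that sample had a rank correlation of 0.503 with its own scanner column, against 1 for each of the other 22 arrays, so the deposited and scanner columns do not hold the same measurement. The cell line field of that sample names ErbB2* while its title names WT. Over the deposited values of the 17577 probes past the detection filter, its column correlated at 0.9933 to 0.9945 with the WT 3D arrays. With the ErbB2* 3D arrays its deposited column correlated at 0.972 to 0.977. The correlations that follow use the signals normalised here over the tested genes, so the 2 kinds cannot be set against each other. WT 2D replicates 1, 5 and 6 formed one set (correlations 0.988 to 0.989 within it) and replicates 2, 3 and 4 another (0.987 to 0.989), with 0.975 to 0.981 between the sets. The labels name no batch for these sets. The 4 WT 3D arrays correlated with each other at 0.989 to 0.990, and at 0.960 to 0.966 with the first 2D set and 0.951 to 0.959 with the second. Values against 1 of these 2D sets alone are given beside those named genes and list counts below that moved most with the choice of set.

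**Figure D1:**
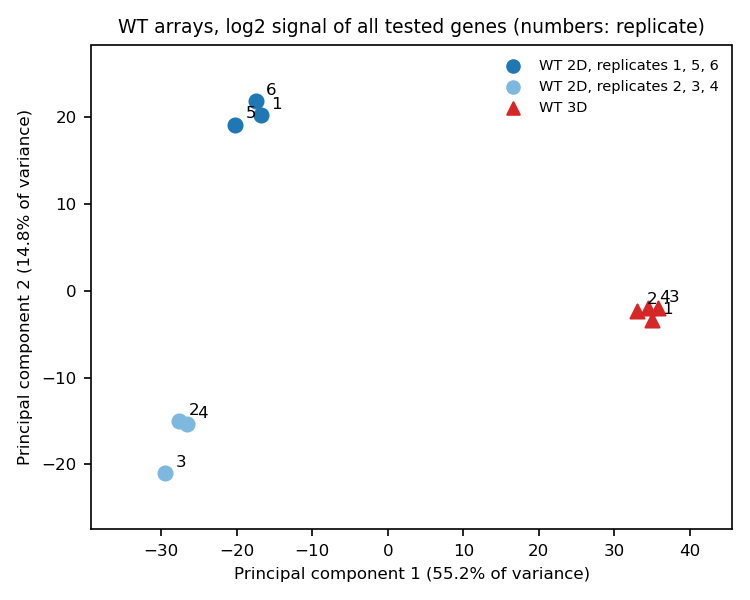
Principal components of the 10 WT arrays over the log2 signals of all tested genes, one point per array, labelled by replicate number (circles 2D, triangles 3D). The horizontal axis (55.2% of the variance) parts the 4 3D arrays from the 6 2D arrays, and the vertical axis (14.8%) parts 2D replicates 1, 5 and 6 from 2, 3 and 4.

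Of the 10914 genes, 3695 were called at an adjusted p under 0.05 (33.9%), with 1870 higher in 3D (17.1%) and 1825 lower (16.7%). A change of at least 2-fold was called for 661 genes (6.06%), 364 of them higher (3.34%) and 297 lower (2.72%), and a change of at least 4-fold for 66 higher and 40 lower. In 2734 genes (25.1%) no 3D array overlapped any 2D array. The 2-fold count shrank to 289 without background correction, to 350 with an offset of 50 and to 194 or 195 in the authors' deposited values. Changes are given as log2 differences of normalised signal, 3D minus 2D, with the standard error (SE) of the fit and its Benjamini-Hochberg adjusted p from limma, over 6 2D and 4 3D arrays. A probe detected only on the 4 WT 3D arrays could not pass the filter; with detection on at least 4 arrays, an alternative chosen after seeing the data, 11276 genes were tested, 3685 called and 664 called at 2-fold. The median change over all genes was -0.01. Replicate 5 of WT cells in 3D, which the fit did not use, was set against these calls through the authors' deposited values, whose source is unsettled since they do not match its scanner column. Its value lay on the called side of the 2D mean for 96.8% of the called genes and beyond all 6 2D arrays for 79.5%, against 26.3% for genes that were not called. For the 661 genes called at 2-fold the shares were 100% and 96.5%.

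Targets of bone morphogenetic protein (BMP) signalling rose together. BMPs act through receptors that phosphorylate SMAD proteins, which then switch on the ID genes, encoding inhibitors of basic helix-loop-helix transcription factors, and SMAD6, an inhibitor in the same pathway. Of 16 genes on the BMP list 10 could be tested, 8 rose and none fell; their median change was 0.92 against -0.01 over all genes, and 4 rose by at least 2-fold. ID2 measured 5.03 at its lowest, 5.72 at the median and 6.11 at its highest in 2D (detected on 5 of 6 arrays), and 9.59, 9.67, 9.91 and 9.97 in 3D. Every 3D array stood far above every 2D array (log2 change 4.09, SE 0.21, adjusted p = 3.59e-13), and a second ID2 probe changed by 4.22. ID3 was already bright in 2D (9.56, 9.73 and 9.96) and reached 13.04, 13.09, 13.21 and 12.96 in 3D. The groups were again apart, with a change of 3.33 (SE 0.11, adjusted p = 2.63e-16). SMAD6 was near background in 2D (4.71, 5.07 and 5.52, detected on 2 of 6 arrays) and measured 9.25, 8.996, 9.33 and 9.14 in 3D. That is a change of 4.08 (SE 0.16, adjusted p = 2.7e-15), and the 3D arrays differed from each other by little. HEY1, a transcriptional repressor that both BMP and Notch signals induce, measured 5.04, 5.71 and 6.34 in 2D (5 of 6 arrays detected) and 7.94, 8.13, 8.53 and 8.20 in 3D (2.48, SE 0.18, adjusted p = 2.01e-10); a second probe changed by 1.01. Among genes named after their values were seen, the pseudoreceptor gene BAMBI rose by 0.97, ID1 by 0.87, SMAD9 by 0.80 and the ligand gene BMP2 by 0.76. The ligand gene BMP6 (0.06, adjusted p = 0.883) and the receptor gene BMPR2 (0.20, adjusted p = 0.442) were not called. With the same reserve about their source, the authors' deposited values of 3D replicate 5 stood at 9.25 for ID2 and 8.92 for SMAD6, above the deposited 2D ranges of 7.47 to 7.72 and 7.39 to 7.57.

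**Figure D2:**
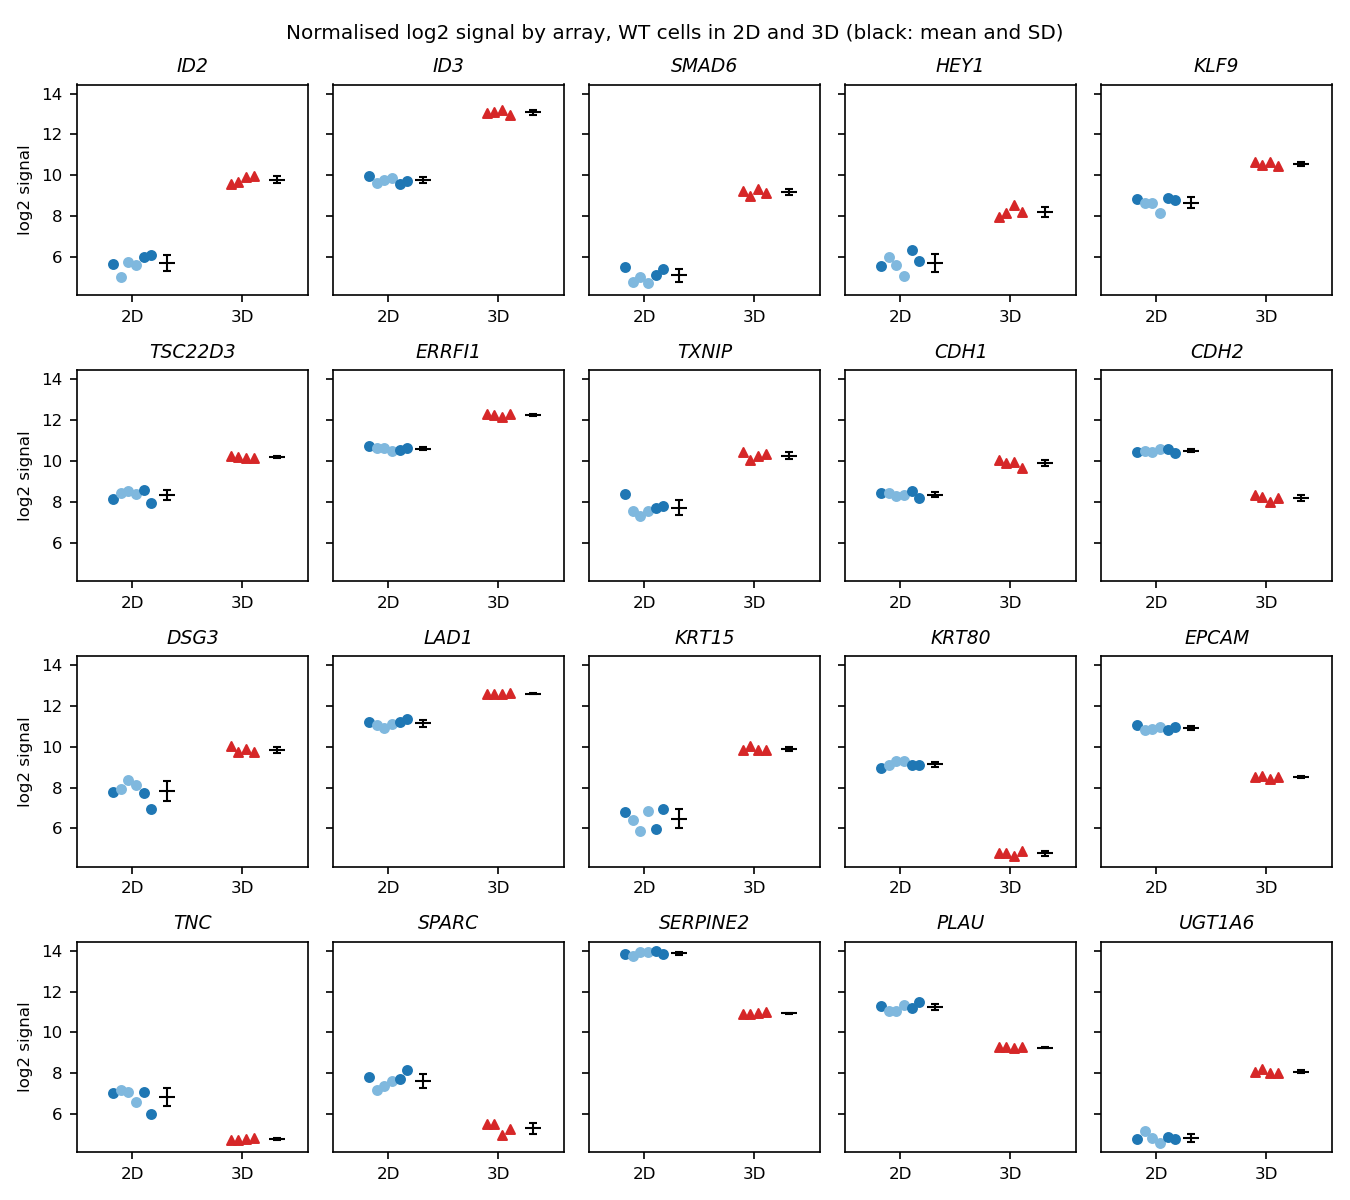
Normalised log2 signal of 20 genes by array in WT cells, one panel per gene (circles 2D, dark blue for replicates 1, 5 and 6 and light blue for 2, 3 and 4; triangles 3D; black marks the mean and SD). In each panel the 4 3D arrays lie outside the range of the 6 2D arrays, as in ID2 (2D up to 6.11, 3D from 9.59) and SERPINE2 (2D from 13.76, 3D up to 10.98).

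Other genes among the 20 largest rises encode transporters, lipid enzymes and receptors. SLC7A8, a transporter of neutral amino acids, was detected on 1 of 6 2D arrays (4.81, 5.02 and 5.29) and measured 9.64, 9.45, 9.86 and 9.46 in 3D. The fitted change was 4.60 (SE 0.14, adjusted p = 4.21e-17), taken against signals at background on 5 of 6 2D arrays. Where a gene was detected on some arrays of a group only, their number is given, and its change rests in part on signals at background. PNLIPRP3, of the pancreatic lipase family, rose from 5.63, 6.06 and 6.94 in 2D to 10.21, 10.37, 10.33 and 9.997 in 3D (4.04, SE 0.17, adjusted p = 1.53e-14). AQP9, a channel for water and glycerol, rose by 3.78 (SE 0.18, detected on 3 of 6 2D arrays) and BDKRB1, the bradykinin B1 receptor, by 3.33 (SE 0.15, 4 of 6). The acyl-CoA thioesterase gene ACOT11 rose by 3.25 and its second probe by 1.86. SAMD11 was below background on all 6 2D arrays (4.57, 4.69 and 4.87) and measured 8.37, 8.59, 8.43 and 8.56 in 3D. For such a probe only a bound can be given, the brighter group's mean over the dim group's signal or the lowest detected signal of each array, whichever is higher: SAMD11 was at least 9.88-fold higher in 3D (adjusted p = 4.21e-17).

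Genes known to respond to glucocorticoids rose in 3D. Glucocorticoid receptors bind steroid and switch on a short set of targets in many epithelia; the labels name no hydrocortisone for either culture. Of 20 genes on this list 18 could be tested, 13 rose and 1 fell, with a median of 1.04. KLF9, a zinc-finger transcription factor, measured 8.16, 8.72 and 8.88 in 2D and 10.66, 10.51, 10.64 and 10.46 in 3D. The 3D arrays lay close together above the 2D range (1.91, SE 0.12, adjusted p = 2.2e-11). TSC22D3, which encodes the leucine-zipper protein GILZ, went from 7.94, 8.41 and 8.57 to 10.27, 10.19, 10.16 and 10.15. Its change was 1.86 (SE 0.12, adjusted p = 3.54e-11), and 2 further probes changed by 1.83 and 1.94. ERRFI1, an inhibitor of the EGF receptor family, went from 10.49, 10.62 and 10.71 to 12.28, 12.27, 12.16 and 12.31 (1.65, SE 0.10, adjusted p = 3.57e-12). The groups did not overlap for any of these 3 genes. The transcription factor gene ZBTB16 rose by 1.51 (SE 0.13) and CEBPD by 1.24 (SE 0.12). MT2A (-0.12, adjusted p = 0.307), CEBPB (-0.02) and ANXA1 (-0.09), all bright in both cultures, were not called, and the phosphatase gene DUSP1, named after its value was seen, fell by 1.10 on the log2 scale.

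Genes linked to quiescence and to FOXO transcription factors, which are active when growth factor signalling is low, overlap with the previous list in KLF9 and TSC22D3. Of 32 such genes 27 could be tested, 20 rose and 2 fell (median 0.97). BTG1, an antiproliferative gene, measured 10.39, 10.57 and 10.68 in 2D and 12.54, 12.67, 12.66 and 12.45 in 3D, well apart (2.02, SE 0.09, adjusted p = 3.91e-14). TXNIP, an inhibitor of thioredoxin and glucose uptake, measured 7.31, 7.64 and 8.37 in 2D and 10.44, 10.04, 10.23 and 10.32 in 3D. The lowest 3D array exceeded the highest 2D array (2.54, SE 0.14, adjusted p = 1.95e-12). KLF2 (-0.23, adjusted p = 0.503) and ARRDC3 (-0.06, adjusted p = 0.844) were not called. Promoters of the list were searched for the forkhead letters TGTTTAC on both strands, over the RefSeq window from 250 bases before to 50 after each start (GRCh38.p14). The letters occurred in 22.2% of the 45 promoters of 26 members with an entry, in 3.42% of all 35093 promoters and in 2.59% of the 13097 promoters of tested genes. The promoters of TXNIP (chr1:145996530-145996829, minus strand), BTG1 (chr12:92145797-92146096, minus strand) and TSC22D3 (chrX:107717013-107717312, minus strand) are shown because they belong to the 3 members with a match whose genes rose most. Capitals mark the match, read as GTAAACA where it lies on the other strand.
TXNIP: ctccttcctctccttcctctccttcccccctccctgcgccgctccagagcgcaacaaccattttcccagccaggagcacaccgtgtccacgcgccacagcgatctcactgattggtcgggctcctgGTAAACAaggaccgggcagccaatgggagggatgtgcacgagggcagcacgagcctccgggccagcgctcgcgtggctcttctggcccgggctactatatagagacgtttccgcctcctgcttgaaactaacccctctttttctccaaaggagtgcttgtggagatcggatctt
BTG1: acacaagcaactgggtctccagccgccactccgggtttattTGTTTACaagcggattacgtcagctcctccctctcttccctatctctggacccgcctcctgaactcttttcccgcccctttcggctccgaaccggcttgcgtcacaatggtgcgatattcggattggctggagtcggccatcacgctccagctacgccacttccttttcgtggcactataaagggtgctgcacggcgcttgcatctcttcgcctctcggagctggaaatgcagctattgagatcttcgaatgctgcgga
TSC22D3: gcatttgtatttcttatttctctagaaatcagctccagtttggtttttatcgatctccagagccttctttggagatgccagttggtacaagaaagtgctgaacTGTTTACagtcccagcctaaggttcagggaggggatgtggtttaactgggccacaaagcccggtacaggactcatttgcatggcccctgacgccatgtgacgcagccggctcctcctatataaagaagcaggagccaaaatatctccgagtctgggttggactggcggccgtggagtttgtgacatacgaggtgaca
A match is a description of these letters. The same search also found them in the promoter of TRIB2, a pseudokinase gene of the list. TRIB2 fell by 1.45 on the log2 scale (detected on 3 of 4 3D arrays). The letters also occurred in promoters of FOXO4 (0.49, adjusted p = 0.0712), MXI1 and ARRDC3, which were not called.

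Genes of mitosis were lower in 3D with few exceptions. Of 48 tested genes of the mitotic spindle and its regulators 43 fell and none rose (median -0.74), and of 39 tested genes of DNA replication and nucleotide synthesis 32 fell and none rose (median -0.57). ANLN, an actin-binding protein of the cleavage furrow, measured 10.42, 10.79 and 10.92 in 2D and 9.30, 9.81, 9.42 and 9.39 in 3D. Its highest 3D array stayed below its lowest 2D array (-1.25, SE 0.15, adjusted p = 1.02e-06). TYMS, which makes thymidylate, went from 12.17, 12.27 and 12.42 to 11.04, 11.10, 11.01 and 11.14. The change was -1.22 (SE 0.08, adjusted p = 2.11e-11), again without overlap. The spindle gene TPX2 changed by -1.11 (adjusted p = 0.000108), or by -0.62 against 2D replicates 1, 5 and 6 alone, and the DNA ligase gene LIG1 by -0.98, or by -0.57 against those replicates. PTTG1 (-0.04) and CKS1B (-0.17) were bright in both cultures and not called, and neither was RPA3 (-0.19, adjusted p = 0.0673). The cyclin-dependent kinase inhibitor gene CDKN1C rose by 1.52 (SE 0.14, adjusted p = 1.44e-08), CDK2 fell by 0.85 on the log2 scale, and CDKN1A (0.17) and the cyclin gene CCND3 (-0.11) were not called.

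Promoters of cell cycle genes expressed late in the cycle are known for pairing CCAAT boxes, bound by NF-Y, with a cell cycle homology region (CHR), bound by the DREAM and MuvB complexes. Both CCAAT and the CHR letters TTTGAA were searched on both strands in the same window. Of the 52 promoters of tested mitosis genes 27 (51.9%) held both, against 5.9% of all promoters and 4.44% of those of tested genes. The promoter of CKS1B, which was not called (-0.17, adjusted p = 0.189), also held both. TTTGAA, with or without CCAAT, was in 63.5% of the mitosis promoters and in 4.17% of the 48 replication promoters. It was in 15.2% of all promoters and in 11.1% of those of tested genes. CDCA8 (chr1:37692266-37692565, plus strand), a subunit of the chromosomal passenger complex, and TOP2A (chr17:40417847-40418146, minus strand), the type II topoisomerase of dividing cells, are shown as promoters with both. CDCA8 fell on every 3D array (9.83, 9.96 and 10.30 in 2D; 8.88, 8.71, 9.09 and 8.49 in 3D; change -1.23, adjusted p = 3.96e-08), and TOP2A, taken for its promoter, changed by -0.89 (SE 0.11, adjusted p = 1.02e-06). Capitals mark CCAAT and TTTGAA, or their reverse complements ATTGG and TTCAAA, and in CDCA8 the run TTTGAATTGG holds one of each sharing a base.
CDCA8: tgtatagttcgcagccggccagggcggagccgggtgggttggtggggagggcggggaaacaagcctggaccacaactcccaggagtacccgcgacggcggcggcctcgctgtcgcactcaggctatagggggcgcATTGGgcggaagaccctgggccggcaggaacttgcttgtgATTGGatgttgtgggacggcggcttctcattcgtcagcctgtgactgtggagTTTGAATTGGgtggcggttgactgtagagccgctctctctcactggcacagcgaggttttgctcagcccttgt
TOP2A: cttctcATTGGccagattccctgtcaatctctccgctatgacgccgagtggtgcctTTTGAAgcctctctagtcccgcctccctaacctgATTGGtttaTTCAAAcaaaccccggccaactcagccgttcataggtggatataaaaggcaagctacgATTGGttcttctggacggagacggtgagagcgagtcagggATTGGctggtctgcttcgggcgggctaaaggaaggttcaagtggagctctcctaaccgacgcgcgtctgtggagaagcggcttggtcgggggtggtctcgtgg

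**Figure D3:**
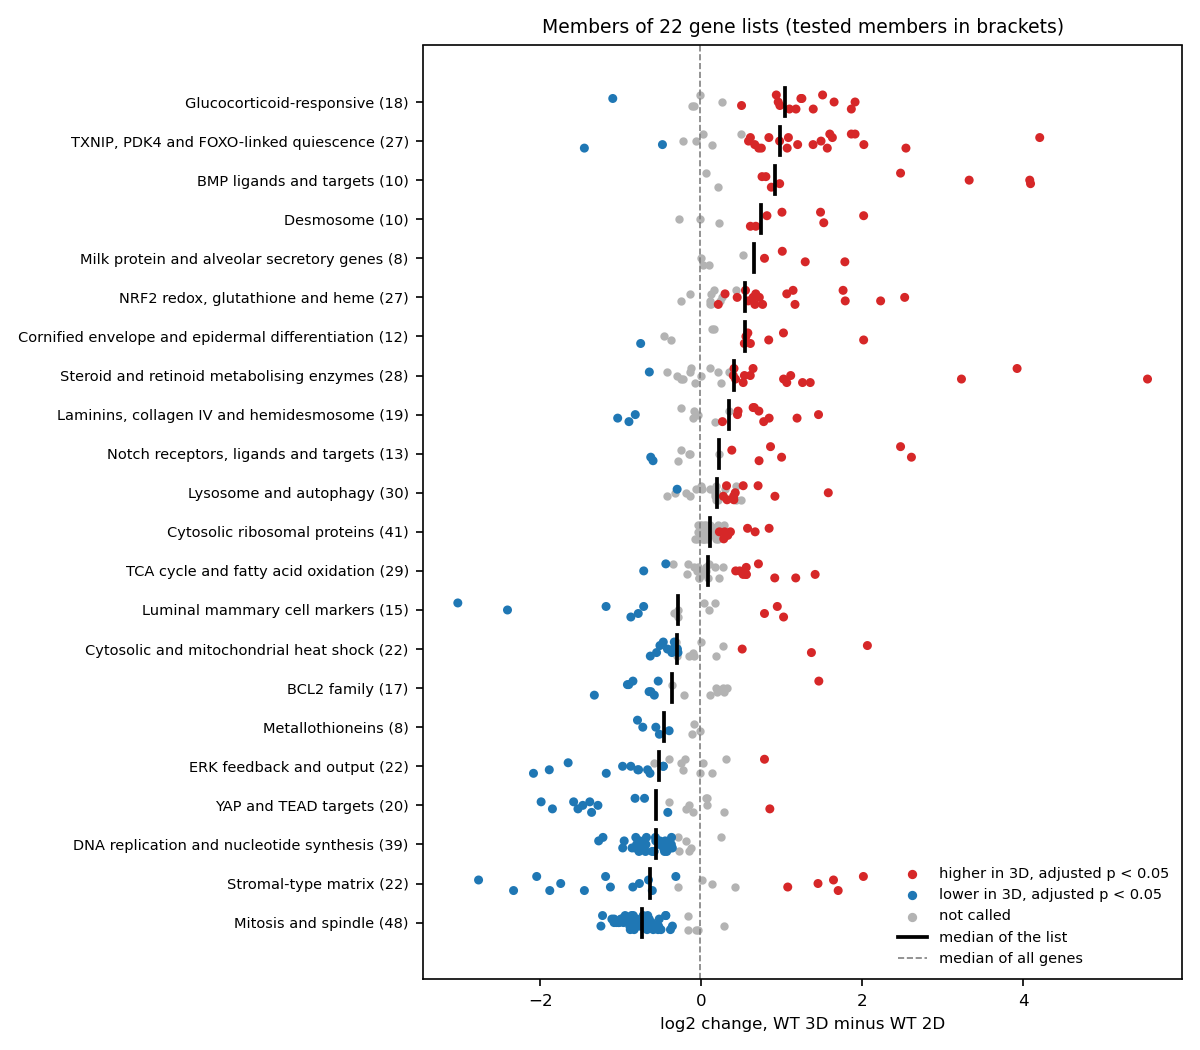
Log2 change from 2D to 3D in WT cells for each tested member of 22 gene lists (red, higher and called; blue, lower and called; grey, not called; black bar, median of the list; dashed line, median of all genes at -0.01). The glucocorticoid (median 1.04), quiescence (0.97), BMP (0.92) and desmosome (0.75) lists lie to the right, and the mitosis (-0.74) and stromal matrix (-0.63) lists to the left, the last with members at both ends.

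Among classical cadherins and catenins 3 of 11 tested rose and 4 fell. Cadherins join neighbouring cells: E-cadherin (CDH1) and P-cadherin (CDH3) are epithelial, and N-cadherin (CDH2) is typical of neural and mesenchymal cells. CDH1 measured 8.18, 8.37 and 8.51 in 2D and 10.03, 9.92, 9.95 and 9.67 in 3D. All 3D arrays were higher (1.54, SE 0.12, adjusted p = 5.74e-10). CDH3 went from 9.29, 9.57 and 10.05 to 11.36, 11.35, 11.29 and 11.16 (1.70, SE 0.14, adjusted p = 2.06e-09). CDH2 moved the other way, from 10.41, 10.46 and 10.61 to 8.34, 8.25, 7.97 and 8.19 (-2.31, SE 0.10, adjusted p = 2.81e-14). None of the 3 cadherins had overlapping groups. CDH11 was below background on all 4 3D arrays and detected on all 6 2D arrays, at least 1.44-fold lower in 3D. The catenin genes CTNNA1 (-0.07, adjusted p = 0.627) and CTNNB1 (-0.30, adjusted p = 0.401), whose products anchor cadherins, were not called. Of 11 tested EMT factors and splicing regulators 3 rose and 3 fell; the intermediate filament gene VIM fell by 0.82 on the log2 scale (SE 0.11), and SNAI2 (-0.07) was not called. The epithelial splicing regulator ESRP1 was called at 0.99 (adjusted p = 0.00726; detected on 1 of 6 2D arrays) with overlapping groups, and was not called against 2D replicates 2, 3 and 4 alone (0.79, adjusted p = 0.0689) or with the scanner column of 3D replicate 5 (0.74, adjusted p = 0.0558).

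Of 10 tested genes of the desmosome, the junction that anchors keratin filaments, 7 rose and none fell (median 0.75). The desmosomal cadherin gene DSG3 measured 6.97, 7.87 and 8.39 in 2D, a wide range, and 10.03, 9.74, 9.87 and 9.74 in 3D. Its groups were apart (2.02, SE 0.21, adjusted p = 6.59e-08). The plaque gene DSP went from 9.07, 10.02 and 10.22 to 11.55, 11.29, 11.43 and 11.18 (1.48, SE 0.17, adjusted p = 4.67e-07), and 2 further probes changed by 1.01 and 1.02. DSC3 rose by 1.52 (SE 0.17) through its brightest probe, and by 0.31 through a second. With the low scanner column of 3D replicate 5 put back, neither DSP (0.25, adjusted p = 0.824) nor DSC3 (0.70, adjusted p = 0.298) was called. PERP, a tetraspan membrane protein of desmosomes, rose by 1.00 (SE 0.16, adjusted p = 3.22e-05). DSG2 (-0.27, adjusted p = 0.31) and PKP4 (-0.02) were not called. At tight junctions and the apical pole, 3 of 13 tested genes rose and 1 fell (2 and 2 against 2D replicates 1, 5 and 6), a share called no higher than the 33.9% of all genes. Claudins went both ways: CLDN7 rose by 1.26 (SE 0.15, adjusted p = 4.7e-07; 0.50 and not called with that scanner column), and CLDN1 fell by 1.41 on the log2 scale (SE 0.16, adjusted p = 3.78e-07). The apical polarity gene CRB3 rose by 0.86 (SE 0.16, adjusted p = 0.000247), and its partner PATJ, called at 0.55 (adjusted p = 0.0411; detected on 2 of 6 2D arrays), overlapped between groups and lost its call under 16 of the alternatives.

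Keratins form the epithelial intermediate filaments, and different ones mark basal and luminal cells. KRT15, a keratin of basal and progenitor-type cells, rose from 5.88, 6.596 and 6.94 in 2D to 9.82, 10.01, 9.86 and 9.85 in 3D. The 3D arrays were tight and far above the 2D range (3.41, SE 0.21, adjusted p = 1.09e-11). KRT80 did the reverse: it measured 8.94, 9.11 and 9.31 in 2D and was below background on all 4 3D arrays. It was at least 15.3-fold lower in 3D (adjusted p = 3.7e-16), and a second probe changed by -1.21. The main basal keratin genes changed less. KRT5 (-0.15, adjusted p = 0.405) was not called, KRT14 was called at -0.43 (adjusted p = 0.0244; 0.224 after median scaling and 0.107 against 2D replicates 2, 3 and 4 alone), and KRT6C (0.08), which has near-identical copies that a probe may not tell apart, was not called. Of 3 tested simple keratins 2 fell: KRT7 by 1.11 on the log2 scale (SE 0.13, adjusted p = 6.1e-07) and KRT8 by 0.87 (SE 0.13; -0.57 and not called, adjusted p = 0.0516, with the scanner column of 3D replicate 5), while KRT18 was not called (-0.33, adjusted p = 0.119).

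Luminal markers did not move as one. Of 15 tested 3 rose and 6 fell (median -0.29). The mucin gene MUC1 measured 11.04, 11.41 and 11.61 in 2D and 8.49, 8.25, 8.41 and 8.21 in 3D. All its 3D arrays were lower (-3.02, SE 0.16, adjusted p = 8.98e-13), with 2 further probes at -3.27 and -2.38. EPCAM, an epithelial adhesion molecule, went from 10.82, 10.93 and 11.05 to 8.54, 8.56, 8.44 and 8.54 (-2.41, SE 0.10, adjusted p = 4.19e-15), and its second probe changed by -0.45. The transcription factor gene TFAP2C fell by 1.18 on the log2 scale (SE 0.13). In contrast the retinaldehyde dehydrogenase gene ALDH1A3 rose by 1.02 (SE 0.11; 0.16 and not called with the scanner column of 3D replicate 5) and the protease inhibitor gene SLPI by 0.79 (SE 0.12). Of 21 genes on the list of milk proteins and secretion 8 could be tested, 4 rose and none fell (median 0.65). The milk protein genes CSN1S1, CSN2, CSN3 and LALBA were not among those tested. MFGE8, a milk fat globule protein, measured 10.92, 11.32 and 11.58 in 2D and from 12.93 to 13.31 on the 4 3D arrays, without overlap (1.78, SE 0.12, adjusted p = 2.73e-11). XDH, the xanthine dehydrogenase of the milk fat globule membrane, rose by 1.29 (SE 0.16), and STAT5A, the transcription factor that prolactin activates, by 1.01 (SE 0.20, detected on 4 of 6 2D arrays; 0.66 and not called, adjusted p = 0.0638, with that scanner column), while STAT5B (0.02) was not called. Among lineage transcription factors 5 of 21 rose and 5 fell; SOX9 fell by 1.38 on the log2 scale (SE 0.18, detected on 3 of 4 3D arrays) and TBX3 by 1.20 (SE 0.16). Of 27 genes on the cornified envelope list 12 could be tested, and 7 rose and 1 fell (5 and 2 against 2D replicates 1, 5 and 6, median 0.55). The rises included the desmosomal cadherin genes DSG3 and DSC2. They also included TGM5 and LCE3D, below background on all 6 2D arrays (DSC2 and LCE3D were named after their values were seen). The envelope gene PPL fell by 0.75 on the log2 scale (SE 0.14, detected on 3 of 4 3D arrays). EVPL (0.13) was not called, and IVL and FLG were not tested.

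Matrix genes of the stromal type were mostly lower. Of 31 on the list 22 could be tested, 13 fell and 5 rose (median -0.63). COL8A1, a short-chain collagen, measured 10.96, 11.20 and 11.81 in 2D and 8.85, 8.36, 8.36 and 8.50 in 3D. No arrays overlapped (-2.77, SE 0.20, adjusted p = 1.96e-10), and 2 further probes changed by -3.33 and -2.02. SPARC, a collagen-binding matrix protein, went from 7.18, 7.65 and 8.17 to 5.50, 5.51, 4.96 and 5.26, where 2 of 4 arrays detected it (-2.33, SE 0.16, adjusted p = 6.88e-11). The tenascin gene TNC was below background on all 4 3D arrays and detected on all 6 2D arrays, at least 3.08-fold lower in 3D. The thrombospondin gene THBS1 fell by 1.75 on the log2 scale (SE 0.15, adjusted p = 1.79e-09). The 5 that rose were the collagen chain COL1A1, the collagen-modifying enzymes P3H2 and P4HA2, periostin (POSTN) and lysyl oxidase (LOX); LOX (1.64) and P4HA2 (1.07) were named after their values were seen. P3H2 measured 8.39, 8.77 and 9.05 in 2D and 10.88, 10.65, 10.72 and 10.75 in 3D (2.01, SE 0.17, adjusted p = 2.28e-09). COL1A1 rose by 1.70 (SE 0.19) from 2D signals detected on 1 of 6 arrays, and POSTN by 1.45 (SE 0.15; 0.80 and not called with the scanner column of 3D replicate 5).

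At the basement membrane, which epithelial cells lay down and grip through integrins and hemidesmosomes, 10 of 19 tested genes rose and 3 fell (median 0.35); against 2D replicates 2, 3 and 4 alone 8 rose and 5 fell. LAD1, an anchoring filament protein, measured 10.91, 11.16 and 11.35 in 2D and 12.59, 12.58, 12.61 and 12.63 in 3D. The 3D arrays were almost equal (1.46, SE 0.11, adjusted p = 1.96e-10). The linker gene DST rose by 1.19 (SE 0.20), with 4 further probes between 0.01 and 1.20. The collagen IV gene COL4A1 fell by 1.04 on the log2 scale (SE 0.11, adjusted p = 1.74e-07), and the laminin genes LAMA5 (-0.10) and LAMB3 (-0.25) were not called. The hemidesmosome integrin ITGB4, called at 0.64 (adjusted p = 0.00534), changed by 0.25 (adjusted p = 0.128) against 2D replicates 2, 3 and 4 and by 1.04 against 1, 5 and 6; with the scanner column of 3D replicate 5 it was 0.39 (adjusted p = 0.194). The heparan sulfate proteoglycan gene AGRN, called at -0.90 (adjusted p = 0.0191), depended on the same split: it changed by -1.67 against 2D replicates 2, 3 and 4 and by -0.12 (adjusted p = 0.606) against 1, 5 and 6. Among 13 tested integrin subunits 5 rose and 3 fell (3 and 3 against 2D replicates 1, 5 and 6, and 3 and 2 against 2, 3 and 4). ITGB2, the beta subunit of leukocyte integrins, went from 8.98, 9.44 and 9.67 to 6.93, 7.46, 6.83 and 7.11 (-2.29, SE 0.15, adjusted p = 2.16e-11). ITGA5, of the fibronectin receptor, rose by 1.23 (SE 0.16).

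Extracellular proteases and their inhibitors moved in both directions, 5 of 20 up and 7 down (median -0.11). SERPINE2, an inhibitor of thrombin and plasminogen activators, was bright in 2D (13.76, 13.90 and 13.97) and measured 10.90, 10.92, 10.94 and 10.98 in 3D. The groups were far apart (-2.95, SE 0.09, adjusted p = 4.21e-17). The urokinase gene PLAU fell from 11.07, 11.24 and 11.48 to 9.27, 9.27, 9.22 and 9.29 (-1.98, SE 0.10, adjusted p = 2.65e-13). The tissue-type activator gene PLAT rose instead, by 1.56 (SE 0.14, adjusted p = 3.88e-09), and the metalloprotease gene MMP28 by 2.54 (SE 0.14, adjusted p = 8.98e-13), with its other probes at 1.91 to 2.48. The urokinase receptor gene PLAUR was not called (-0.20, adjusted p = 0.275). PAPPA, a protease of insulin-like growth factor binding proteins, was below background on all 4 3D arrays and at least 6.14-fold lower there.

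Enzymes of steroid and retinoid metabolism rose more often than they fell, 15 of 28 against 1 (13 against 2 with 2D replicates 2, 3 and 4; median 0.40). HSD17B2, which oxidises estradiol to estrone, had the largest change of all called genes: 6.00, 6.44 and 7.18 in 2D and 12.17, 11.96, 12.12 and 12.03 in 3D (5.54, SE 0.17, adjusted p = 4.21e-17). DHRS3, which reduces retinaldehyde to retinol, measured 6.84, 7.07 and 7.18 in 2D and 11.02, 10.93, 10.98 and 10.97 in 3D. Both groups were tight and far apart (3.92, SE 0.11, adjusted p = 1.19e-17). UGT1A6, a glucuronosyltransferase, was detected on 1 of 6 2D arrays (4.60, 4.81 and 5.19) and measured 8.08, 8.19, 8.02 and 8.02 in 3D (3.23, SE 0.15, adjusted p = 5.64e-14). The UGT1A genes share their last exons, so its probe may also detect other members. The estrogen sulfotransferase gene SULT1E1 rose by 1.35 (SE 0.20, adjusted p = 1.24e-05) from 2D signals detected on 1 of 6 arrays. HSD17B12 (adjusted p = 0.988) and the retinol dehydrogenase gene RDH11 (-0.14, adjusted p = 0.25) were bright in both cultures and not called.

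Immediate early genes, induced within minutes of a stimulus, include members of the AP-1 family and others. Of 18 tested on this joint list 6 rose and 5 fell (8 fell against 2D replicates 1, 5 and 6 alone). The AP-1 genes FOS (0.06, adjusted p = 0.838) and JUNB (0.34, adjusted p = 0.209), named after their values were seen, were not called. FOSB measured 5.55, 6.01 and 6.42 in 2D and 11.56, 11.13, 11.28 and 10.89 in 3D (5.22, SE 0.23, adjusted p = 2.45e-14). ATF3, detected on 2 of 6 2D arrays, went from 4.80, 5.04 and 5.87 to 9.16, 9.12, 9.21 and 8.96 (3.92, SE 0.23, adjusted p = 4.05e-12), and EGR1 rose by 1.43 (SE 0.14). JUN moved the other way, from 9.73, 10.05 and 10.18 to 8.72, 8.56, 8.66 and 8.76. It did not overlap between cultures (-1.31, SE 0.13, adjusted p = 3.3e-08), and FOSL1 changed by -1.18 (SE 0.20). Of 22 tested genes downstream of ERK 12 fell and 1 rose (median -0.53); the dual-specificity phosphatase gene DUSP4 fell by 2.08 on the log2 scale (SE 0.21), IER3 by 1.89 (SE 0.10) and the ephrin receptor gene EPHA2 by 1.65 (SE 0.16). The one that rose was HBEGF, a ligand of the EGF receptor (0.79, SE 0.10; 0.40 and not called with the scanner column of 3D replicate 5), while the ligand gene TGFA fell by 0.78 on the log2 scale (SE 0.12). ERBB2 itself was not called in WT cells (8.55, 8.74 and 8.95 in 2D; 8.47, 8.28, 8.78 and 8.20 in 3D; -0.30, adjusted p = 0.0712).

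YAP and TEAD are transcriptional regulators that respond to cell spreading. Of 20 tested genes on the list of their targets, which also holds TEAD genes, 11 fell and 1 rose (median -0.56). The 1 that rose was TEAD1 itself, named after its value was seen (0.85, SE 0.21, adjusted p = 0.00251, detected on 2 of 6 2D arrays). The matricellular gene CCN2 measured 11.17, 11.34 and 11.49 in 2D and 9.88, 9.99, 9.63 and 9.69 in 3D, apart by more than a log2 unit (-1.53, SE 0.12, adjusted p = 4.08e-10). The tissue factor gene F3 fell by 1.99 on the log2 scale (SE 0.14), FSTL1 by 1.85 (SE 0.14) and PHLDB2 by 1.59 (SE 0.15). CCN1 (0.28, adjusted p = 0.102) and MYOF (0.06) were not called. Of 25 tested genes of the contractile actin cytoskeleton 8 fell and 3 rose (7 and 2 against 2D replicates 1, 5 and 6, and 11 and 5 against 2, 3 and 4). Over all genes 16.7% fell and 17.1% rose. TAGLN, which binds actin in smooth muscle and myoepithelium, measured 8.92, 9.38 and 9.74 in 2D and 5.61, 5.15, 5.23 and 5.00 in 3D, where 2 of 4 arrays detected it (-4.15, SE 0.19, adjusted p = 2.86e-14). The calponin gene CNN3 fell by 1.25 on the log2 scale (SE 0.11). The tropomyosin gene TPM1 was higher in 3D (0.97, SE 0.09, adjusted p = 7.36e-09; 0.08 and not called with the scanner column of 3D replicate 5), and its 3 further probes spanned 0.15 to 1.12. MYL6 (0.05) and the caveolar gene CAV1 (-0.22, adjusted p = 0.0835) were not called.

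Notch genes changed unevenly: 6 of 13 tested rose and 2 fell (5 and 1 against 2D replicates 1, 5 and 6). LFNG, the glycosyltransferase that tunes Notch receptors, measured 7.07, 7.34 and 7.60 in 2D and 9.93, 9.85, 10.05 and 9.97 in 3D (2.61, SE 0.12, adjusted p = 5.47e-14). The ligand gene JAG2 rose by 0.86 (SE 0.13) and the target HES1 by 1.00 (SE 0.14), while HES4 (-0.25, adjusted p = 0.212) was not called. Of 17 tested genes of sodium, chloride, water and bicarbonate handling 7 rose and 4 fell. CA12, a carbonic anhydrase at the cell surface, rose from 9.10, 9.74 and 9.95 to 12.55, 12.36, 12.39 and 12.38 (2.78, SE 0.15, adjusted p = 6.97e-13), and its second probe by 2.88. CA2, the cytosolic form, fell by 1.86 on the log2 scale (SE 0.15, adjusted p = 1.23e-09). The epithelial sodium channel subunit SCNN1B rose by 1.93 (SE 0.21) and the subunit SCNN1A (0.27, adjusted p = 0.131) was not called. Among 13 tested S100 calcium-binding proteins 3 rose and 4 fell: S100P rose by 2.74 (SE 0.15), S100A4 fell by 2.22 on the log2 scale (SE 0.08), and S100A8 and S100A9, which form a heterodimer, fell by 1.48 and 1.40. Among 16 tested tetraspanins 7 rose and 2 fell (4 fell against 2D replicates 1, 5 and 6). TSPAN7, detected on 3 of 6 2D arrays, went from 4.85, 5.10 and 5.72 to 9.39, 9.63, 9.47 and 9.32, and TSPAN5 from 8.77, 8.997 and 9.24 to 5.50, 6.45, 5.62 and 6.28. Neither overlapped between cultures (changes of 4.27 and -3.03).

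Among 30 tested genes of cytokines and NF-kB signalling, 10 were called higher and 6 lower (7 and 7 against 2D replicates 1, 5 and 6; median -0.04). The nuclear inhibitor NFKBIZ measured 6.18, 6.52 and 6.77 in 2D and 9.55, 9.53, 9.48 and 9.34 in 3D, without overlap (2.99, SE 0.13, adjusted p = 2.45e-14). A second NFKBIZ probe changed by 0.08. TNFAIP3, the ubiquitin-editing inhibitor A20, rose by 2.60 (SE 0.18, adjusted p = 8.23e-11), and IL1A by 1.47 (SE 0.12). The neutrophil chemokine gene CXCL8 fell from 9.62, 9.91 and 10.10 to 8.34, 8.33, 8.06 and 8.51 (-1.60, SE 0.13, adjusted p = 1.77e-09); the deposited value of 3D replicate 5 was 9.51, just under the deposited 2D range of 9.64 to 10.06. CXCL1 changed by -1.26 (SE 0.23, adjusted p = 0.000172; detected on 2 of 4 3D arrays) and lost its call in the deposited values with replicate 5 (-0.27, adjusted p = 0.0511) and with the scanner column of that replicate (-0.69, adjusted p = 0.179). The other chemokine genes tested, CXCL2, CXCL10, CXCL16, CCL2, CCL20 and CCL28, chosen after their values were seen, were not called. Of 34 tested interferon-stimulated genes 6 rose and 6 fell (2 and 9 against 2D replicates 1, 5 and 6), shares close to the 17.1% and 16.7% of all genes, and IFITM3 fell by 1.21 on the log2 scale (SE 0.09). Of 15 tested genes of MHC class I antigen presentation 3 rose and 2 fell (1 and 0 against 2D replicates 1, 5 and 6), a share called no higher than that of all genes. CSF1R, the macrophage colony-stimulating factor receptor, measured 6.51, 7.03 and 7.16 in 2D and 9.74, 9.39, 9.51 and 9.64 in 3D (2.68, SE 0.18, adjusted p = 3.1e-11); the leukocyte marker LCP1 fell by 1.03 on the log2 scale (SE 0.12).

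Metabolic and stress genes moved in both directions. Of 29 tested genes of the citric acid cycle and fatty acid oxidation 10 rose and 2 fell, against 17.1% and 16.7% of all genes. Their median change was 0.09, and none fell against 2D replicates 1, 5 and 6. Both subunits of the mitochondrial trifunctional protein, which carries out fatty acid oxidation, rose: HADHB from 8.97, 9.15 and 9.22 to 10.57, 10.58, 10.52 and 10.44 (1.41, SE 0.09, adjusted p = 2.11e-11) and HADHA by 1.17 (SE 0.20). MDH2 (0.02, adjusted p = 0.914) was not called. Of 27 tested NRF2-linked redox genes 17 rose and none fell (median 0.55). GPX2, a glutathione peroxidase, was not above background on any of the 6 2D arrays; it was at least 2.53-fold higher in 3D (adjusted p = 3.28e-10), and AKR1B10, an aldo-keto reductase, rose by 2.23 (SE 0.14). Of 30 tested lysosome and autophagy genes 10 rose and 1 fell (2 fell against 2D replicates 1, 5 and 6). The share called in either direction was close to the 33.9% of all genes, with more rises than falls. The saposin precursor gene PSAP rose by 0.52 (SE 0.11), or by 0.34 against 2D replicates 1, 5 and 6. Of 22 tested heat shock genes 10 fell and 3 rose (median -0.30). HSPA1A (-0.63) and HSPA1B (-0.56), nearly identical copies that probes may not separate, fell, while the small heat shock genes CRYAB (2.06, SE 0.17, detected on 2 of 6 2D arrays) and HSPB1 (1.37, SE 0.09) rose. Of 6 tested metallothionein genes, which encode metal-binding proteins, 3 fell and none rose: MT1X by 0.79 on the log2 scale, MT1G by 0.56 and MT1E by 0.52. Near-identical copies of these genes may share probes, and MT2A was not called. MT1G was not called with the scanner column of 3D replicate 5 (-0.24, adjusted p = 0.44), nor MT1E after median scaling (-0.31, adjusted p = 0.0761). Their regulator MTF1, called at -0.73 (adjusted p = 0.0223), changed by -0.17 (adjusted p = 0.554) against 2D replicates 1, 5 and 6 and by -1.29 against 2, 3 and 4. Of 17 tested genes of the BCL2 family 8 fell and 1 rose (7 and 1 against 2D replicates 1, 5 and 6, median -0.36). BCL2 fell by 1.33 on the log2 scale (SE 0.17, detected on 2 of 4 3D arrays). The 1 that rose was BIK, a pro-apoptotic member (1.46, SE 0.20, or 0.93, adjusted p = 0.0514, with the scanner column of 3D replicate 5). The stanniocalcin gene STC2 fell by 2.59 on the log2 scale (SE 0.11) and DDIT4, an inhibitor of mTORC1, by 1.88 (SE 0.11).

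Further gene groups had medians close to that of all genes. Of 41 tested cytosolic ribosomal protein genes 8 rose and none fell (median 0.10, or 0.30 after median scaling), and of 27 proteasome subunit genes 2 rose and 7 fell (1 and 3 against 2D replicates 1, 5 and 6; median -0.12). Of 36 genes of the MYC and ribosome biogenesis list 1 rose and 8 fell (4 and 11 against 2D replicates 2, 3 and 4), and of 18 cytosolic tRNA synthetase genes 2 rose and 2 fell (3 and 3 against those). Of 38 hypoxia and glycolysis genes 10 rose and 12 fell (median -0.07), a larger share called than over all genes. Their changes ran from -3.85 to 2.78, with 3 called higher and 3 lower at 2-fold or more. Apart from the hypoxia and glycolysis list, the share called in each of these lists was at or below the 33.9% of all genes.

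The same culture change in ErbB2* cells gave a test of which WT responses differed. Any construct in that line, which the labels do not name, cannot be told apart here from other differences between the lines. In ErbB2* cells 1863 genes were higher in 3D (17.1%) and 2102 lower (19.3%). Called in both lines in the same direction were 1632 genes, which is 44.2% of the WT calls and 41.2% of the ErbB2* calls, and 296 were called in opposite directions. The changes of the lines correlated at 0.43 across genes, a description over genes measured on the same arrays. The difference, WT change minus ErbB2* change, was called for 2367 genes (21.7%), 1294 with a higher and 1073 with a lower value in WT cells, and at 4-fold or more for 114 (1.04%). Under median scaling the split was 1402 higher to 522 lower. Of the 661 genes called at 2-fold in WT cells 449 (67.9%) had a called difference.

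**Figure D4:**
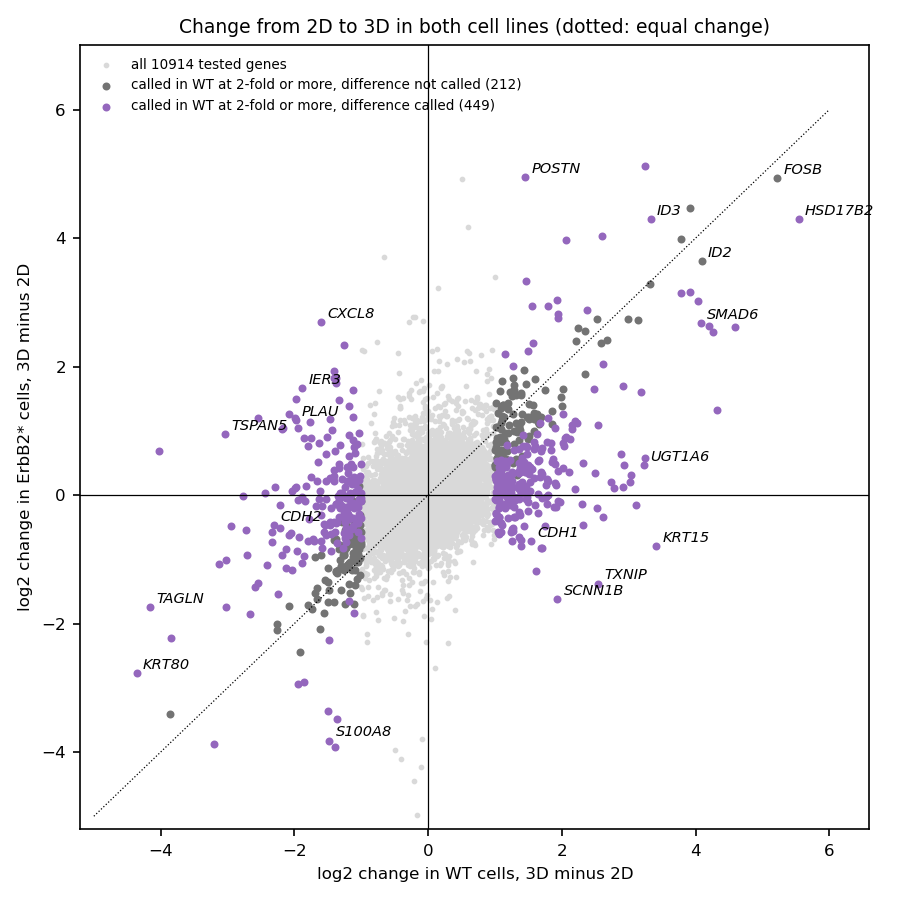
Log2 change from 2D to 3D in WT cells (horizontal) against that in ErbB2* cells (vertical), one point per gene (light grey, all tested genes; dark grey, called in WT cells at 2-fold or more with no called difference; purple, with one; dotted line, equal change). FOSB (5.22 and 4.93) and ID2 (4.09 and 3.65) lie near the dotted line, KRT15 (3.41 and -0.79) and TXNIP (2.54 and -1.38) lie below the horizontal axis, and CXCL8 (-1.60 and 2.69) and PLAU (-1.98 and 1.17) above it.

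Groups of genes differed in how far the lines shared their response. Of the BMP list 7 of 10 members rose in ErbB2* cells (median 1.39, against 0.92 in WT cells) and 4 differences were called, with ID2 at 3.65 and no called difference (adjusted p = 0.284), ID3 at 4.30 (difference -0.97, adjusted p = 5.18e-05) and SMAD6 at 2.68 (difference 1.40). The mitosis list fell in 42 of 48 members there (median -0.75 against -0.74), and 5 differences were called. The glucocorticoid list rose in 6 members and fell in 2 (median 0.17), with called differences in 13 of 18: KLF9 changed by 0.16 in ErbB2* cells (difference 1.75, adjusted p = 3.03e-08) and ERRFI1 by 0.02 (1.63, adjusted p = 1.67e-09). Of 27 quiescence genes 20 had a called difference, as TXNIP did (3.92, adjusted p = 4.06e-13). The desmosome list had 2 rises and 2 falls in ErbB2* cells and 6 called differences of 10, with DSP at -0.04. CDH1 changed by -0.72 there (difference 2.25, adjusted p = 3.01e-10) and CDH2 by -0.47 (difference -1.84, adjusted p = 7.66e-10). The stromal matrix list rose in 9 and fell in 4 of 22 members, and 17 differences were called; THBS1 changed by 0.89 and POSTN by 4.95. ERK-linked genes rose in 12 of 22 and fell in 4, with 14 called differences, as for IER3 (1.66 in ErbB2* cells against -1.89 in WT cells).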

How the data were processed

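Bead arrays of 23 samples were used. Per the file headers, the authors deposited 1 scanner table with a mean probe signal (an intensity, not normalised) and a detection p-value for each array, and a normalised value table on the log2 scale made by steps that no label or header describes. Intensities of 22 arrays (without the scanner column of WT 3D replicate 5) were corrected, quantile-normalised and log2-transformed with limma's neqc (offset 16; limma 3.58.1, R 4.3.3, and the R package data.table at version 1.17.8). Of 48803 probes 28098 had 1 symbol, 13 had several and 20692 had none; 17577 had a detection p under 0.05 on at least 5 arrays, and the brightest probe stood for each of 10914 genes. All 4 groups were fitted together (18 residual degrees of freedom), with two-sided tests and Benjamini-Hochberg adjustment at 0.05. The number of arrays limits the precision. Depth in reads does not apply to arrays.

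The members and gene lists were chosen with earlier results of these data known. The rule for named genes took, from called genes without overlap, the 20 that rose most and the 20 that fell most, in each list up to 4 called members with the largest change and up to 2 brightest that were not called, and the 8 highest and 8 lowest called differences between lines. The fit was tested on simulated data with 10914 genes for WT 3D against WT 2D: 97 of 100 genes changed by 1 log2 unit and 100 of 100 changed by 2 were called, with 11 false calls. The simulated noise was independent for each gene and array and held no sets among the WT 2D arrays. The 11 false calls therefore do not give the error rate of the real data. Promoter sequences and gene names came from RefSeq and GEO's platform annotation; 28059 probes matched an Entrez record and 0 symbols changed. Alternatives covered background correction, scaling, the deposited values, the filter, the probe choice, the arrays fitted and each replicate left out.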

Additional observations from a re-analysis of the deposited data

Results flagged for a closer look

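The mean scanner signal of WT 3D replicate 5 was 150.6, far below the other WT 3D arrays, and its scanner column was left out of the fits apart from the alternative that kept it. Over the named genes, 730 groups of 4 or 6 values were examined for a single far array, and 32 passed the critical value (4.4%), where chance flags about 1 in 20; 4 of these had a gap of at least 1 log2 unit and are given here. SNAR-A1 measured 6.58 on WT 3D replicate 3, against 5.53 or less on the other 3 arrays. ESRP1 measured 5.35 on WT 3D replicate 4, against 6.36 or more on the others. HLA-DRA measured 5.97 on WT 2D replicate 4 and CD74 measured 6.07 on WT 3D replicate 1, both genes being detected on at most 1 array of each WT group.

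Among 365 named genes 199 had a called difference between the culture responses of the lines (limma interaction, 6 WT 2D, 4 WT 3D and 12 ErbB2* arrays), and those of at least 4-fold, 49 genes, follow as WT change minus ErbB2* change on the log2 scale. Some of them were chosen by the size of this difference. Among genes of adhesion, keratin and shape, the difference was 4.20 for KRT15, 2.25 for CDH1, 3.00 for MTSS1, -2.41 for TAGLN, -2.42 for ITGB2, -2.18 for ENC1, -3.99 for TSPAN5 and -2.78 for SNAI2. Among matrix and protease genes it was -2.64 for THBS1, -2.76 for COL8A1, -3.498 for POSTN, -2.73 for FSTL1, -2.18 for CCN2, -3.15 for PLAU, -2.47 for SERPINE2, -2.05 for PAPPA, -3.75 for ADAM19 and -4.71 for SRGN. Cytokines and coagulation genes had -4.29 (CXCL8), -3.595 (CXCL1), -3.59 (IL1B), -3.19 (F3) and -2.004 (ALOX5AP). Growth-linked and transcription factor genes had 3.92 (TXNIP), -3.00 (KLF2), -2.09 (JUN), -3.55 (IER3), -2.17 (EPHA2), -2.395 (HES1) and -3.13 (SOX9). S100 proteins had 2.54 (S100P), -2.065 (S100A4), 2.35 (S100A8) and 2.525 (S100A9). Transport and lipid genes had 3.55 (SCNN1B), 2.67 (CA12), 2.11 (CLCA2), 2.77 (UGT1A6), 2.67 (ACOT11), -3.22 (MGLL) and -4.41 (FABP4). The rest were -2.48 for SNAR-A1, -2.14 for DEFB1, -4.37 for SCG5, 3.705 for IL1RL1 and 3.70 for LAMP3.

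In SERPINB3 (4.25), SERPINB4 (4.13) and FGL1 (4.81), as in LAMP3, no WT array of either culture was above background, and the ErbB2* changes were -4.46, -4.23, -4.98 and -3.79. SERPINB3 and SERPINB4 are nearly identical copies that probes may not separate. FABP4 was detected on 1 of the 10 WT arrays, so its difference also rests on WT signals at background.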

How the results depend on the processing

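The count of genes called in WT cells (3695) ranged from 2678 under median scaling to 4102 in the deposited values with WT 3D replicate 5. The 661 genes called at 2-fold or more became 289 without background correction, 350 with normexp on the signals alone and an offset of 50, 195 in the deposited values without WT 3D replicate 5 and 194 with it; the cause was not tested. All of the genes called at 2-fold in those 4 settings were among the 661. The called differences between lines (2367) ranged from 1643, with the scanner column of WT 3D replicate 5 kept, to 3200. Against WT 2D replicates 2, 3 and 4 alone the 3 counts were 3991, 905 and 3200, and against 1, 5 and 6 alone 3093, 652 and 1793. Leaving out each WT replicate in turn gave 3127 to 3712 called genes, 629 to 701 at 2-fold and 2002 to 2497 differences. Of 365 named genes 243 were called, and 186 of these kept direction and call under every alternative that gave a value. Over 8724 pairs of a named gene and an alternative, 8402 kept direction and call, 196 lost the call, 125 gained one and 1 reversed: PNPLA2 changed by 0.73 (adjusted p = 0.00793, limma) without WT 2D replicates 2, 3 and 4, against -0.02 with all. With the replicate number as a block 3372 genes were called, 675 at 2-fold, with 2173 differences; same-numbered arrays correlated at -0.0585 to 0.0758 and 1 of 4 WT 3D arrays correlated best with its own number, so the numbers were not taken as pairs. Probes near background limit what can be said of dim genes.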

Other observations

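Of the probes that passed the detection filter, 3022 had no single gene symbol in the annotation used here. In WT cells 274 of these were higher in 3D and 319 lower (19.6% called), 48 and 46 of them by at least 2-fold. The largest changes were -4.10 for probe ILMN_1709674, -3.17 for ILMN_2331231 and 2.83 for ILMN_1733831, on the log2 scale.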
